A study of Homo sapiens with 17 samples.

Results

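The integrated stress response (ISR) genes were 10 genes taken by name: *ATF4*, *ATF5*, *CEBPB*, *ATF3*, *DDIT3*, *PPP1R15A*, *TRIB3*, *CHAC1*, *SESN2* and *ASNS*. All 10 were found by symbol among the 19222 genes of a 1 h experiment in HEK-293T cells, a line derived from human embryonic kidney, and 7 of them among the 9982 genes listed for a 2 h experiment. In the 1 h experiment, cells received 4-thiouridine (s4U, 500 µM) alone (3 untreated libraries) or together with 1.8 µM emetine, an alkaloid that blocks translation elongation (3 libraries). 1 untreated and 1 emetine-treated library came from cells without s4U. The 2 h experiment comprised untreated cells, cells with 1.8 µM emetine and cells with 240 µM emetine, 3 libraries each, with 250 µM s4U in the labels. The labels name no further allele or treatment, and the sources used here do not say whether the replicates were separate cultures, so p-values measure only the spread between these libraries, which may be technical.

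In the ISR, kinases that sense different stresses phosphorylate the translation initiation factor eIF2, which lowers initiation in general and favors translation of a few mRNAs with upstream open reading frames, *ATF4* foremost. The ATF4 protein then activates genes of amino acid supply and stress defense, together with further bZIP transcription factors such as ATF3, the product of *DDIT3* (CHOP) and C/EBPβ. *PPP1R15A* (GADD34) closes the loop by recruiting a phosphatase to eIF2. Stalled and collided ribosomes are among the signals that can feed into this response, and many of its mRNAs are known to be short-lived. The paper, citing earlier work, describes its low emetine dose as a modest trigger of the ribotoxic stress response, a kinase pathway, that leaves the ISR inactive. ISR activity was not tested here.

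The promoters are shown because promoters of ATF4 target genes commonly carry a C/EBP-ATF response element, whose core was searched as TGATGNAA on both strands, and because ATF and CREB proteins bind the palindrome TGACGTCA. RefSeq promoter windows on GRCh38.p14, from 250 bases before to 50 bases after a gene's start, were at hand for all 10 genes in 19 windows. The core TGATGNAA was found in windows of 3 of the 10 genes, *ATF3*, *CHAC1* and *ASNS*, against 4.46% of the 27305 genes with a window and 3.62% of the 35116 windows. The palindrome TGACGTCA was found in 1 of the 10, *PPP1R15A*, against 2.25% of genes and 1.85% of windows. The 10 genes had more windows per gene than all genes, so the shares of genes are not a like background. The 4 windows are printed 5′ to 3′ on the gene's strand, and the capitals mark the matched letters. No match of one motif overlapped a match of the other. A match is a description of these letters only, and no match says nothing about the factors.
ATF3: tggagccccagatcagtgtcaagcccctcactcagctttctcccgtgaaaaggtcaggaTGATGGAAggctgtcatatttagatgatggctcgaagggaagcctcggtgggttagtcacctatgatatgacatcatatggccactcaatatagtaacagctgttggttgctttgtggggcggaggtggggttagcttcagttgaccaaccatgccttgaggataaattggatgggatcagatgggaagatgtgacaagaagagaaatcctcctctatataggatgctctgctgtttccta
CHAC1: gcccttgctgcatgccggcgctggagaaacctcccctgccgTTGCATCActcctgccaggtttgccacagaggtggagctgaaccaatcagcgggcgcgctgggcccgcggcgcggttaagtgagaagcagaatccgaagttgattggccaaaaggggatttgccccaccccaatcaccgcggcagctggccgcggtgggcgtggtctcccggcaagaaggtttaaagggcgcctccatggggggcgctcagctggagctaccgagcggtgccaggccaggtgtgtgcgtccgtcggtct
ASNS: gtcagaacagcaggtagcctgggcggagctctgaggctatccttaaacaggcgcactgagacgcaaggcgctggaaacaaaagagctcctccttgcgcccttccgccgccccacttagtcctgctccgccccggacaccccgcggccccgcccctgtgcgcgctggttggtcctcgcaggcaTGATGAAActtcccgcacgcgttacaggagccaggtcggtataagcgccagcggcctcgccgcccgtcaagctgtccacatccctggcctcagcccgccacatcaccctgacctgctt
PPP1R15A: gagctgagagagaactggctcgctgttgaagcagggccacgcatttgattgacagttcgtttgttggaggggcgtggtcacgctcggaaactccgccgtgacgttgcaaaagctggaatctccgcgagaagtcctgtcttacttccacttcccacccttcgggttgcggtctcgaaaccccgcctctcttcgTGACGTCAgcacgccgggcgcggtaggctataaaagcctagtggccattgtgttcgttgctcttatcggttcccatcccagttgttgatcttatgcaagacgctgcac
The *ATF3* window lies at chr1:212565157-212565456 (plus strand), and its match, TGATGGAA, begins at position −191 from the start. That of *CHAC1* (chr15:40953221-40953520, plus strand) is on the opposite strand at −209 and reads TTGCATCA as printed. The *ASNS* window is at chr7:97872359-97872658 (minus strand), with TGATGAAA at −68. The *PPP1R15A* palindrome lies at −58 in chr19:48872171-48872470 (plus strand). Of these 4 genes, *ATF3* and *PPP1R15A* had higher levels after emetine and *CHAC1* and *ASNS* did not pass edgeR's test of level, as given below gene by gene.

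Reads given to genes numbered between 22246279 and 40018063 per library, and each of the 10 genes had between 101 and 39616 reads in every library. Levels are given as CPM, read counts scaled to a common library size with edgeR's TMM factors. Fraction new is the share of a gene's reads that came from RNA made during the labeling hour, estimated from the T-to-C conversions that s4U leaves after recoding. With s4U, between 5.38% and 71.8% of a member's reads carried at least 1 conversion, and without s4U between 0% and 2.33%. The lowest of these, 0 of 112 reads of *CHAC1* in the untreated library, allows a share of up to 2.68% (3 counts, counting error only). The 5 markers of an embryonic kidney line reported here, among them *SALL1* and *HOXA9*, had reads in all libraries, at 1.23 to 58.2 CPM. Of 6 markers of other cell types, 4 were listed, at 0.425 CPM or lower. In bulk libraries such as these, fewer cells that express a gene and less of its RNA per cell cannot be told apart.

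Emetine replicate 3 stood apart from the other libraries. The SD of its deviation from its group across 11398 genes was 0.27 log2 units, against 0.10 to 0.12 in the untreated libraries and 0.15 and 0.16 in emetine replicates 1 and 2. Its deviation went with transcript length, with a Spearman correlation of 0.75 across genes, which are not independent replicates. For emetine replicates 1 and 2 it was −0.68 and −0.67, and since deviations from a mean of 3 libraries are tied to each other, these correlations do not single out 1 of them. Results are therefore also given without this library where it changed a call.

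In untreated cells, the ISR genes spanned a wide range of levels and of turnover. Per kilobase of transcript, *ATF4* mRNA, which encodes the central transcription factor, was the most abundant at 603 ± 6.16 CPM per kb (SD, n = 3), followed by *ASNS* (asparagine synthetase) at 68.2 ± 0.154. *ATF5*, a bZIP factor related to ATF4, stood at 21.8 ± 1.39, and *SESN2* (sestrin 2, an inhibitor of mTORC1 signaling) at 16.7 ± 0.648. *DDIT3*, *ATF3*, *PPP1R15A*, *CEBPB* and *TRIB3* followed at 14.0 ± 2.30, 11.9 ± 2.2, 10.7 ± 1.10, 9.41 ± 1.63 and 7.74 ± 0.298 CPM per kb, and the ranges of neighbors among these 5 overlapped over the 3 libraries. *CHAC1*, which encodes an enzyme that degrades glutathione, was the lowest at 3.37 ± 1.04 CPM per kb and did not overlap *TRIB3*. The first 4 of this order did not overlap their neighbors.

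The same genes ranked differently by turnover. The fraction new of *PPP1R15A*, the phosphatase subunit of the feedback loop, was 79.1% ± 4.43 (SD, n = 3 untreated libraries), and only 71 of the 10763 genes tested for fraction new (100 reads or more per library) had a higher mean. *DDIT3* followed with 76.7% ± 3.53 and *CHAC1* with 70.6% ± 8.24. *ATF3* and *CEBPB* had 59.2% ± 11.5 and 58.8% ± 8.17, and these 5 genes lay in the top 5% of all genes by fraction new. *SESN2* had 39.0% ± 8.81, *ATF4* 30.0% ± 2.76, *TRIB3* 28.3% ± 2.01, *ATF5* 17.7% ± 1.85 and *ASNS* 5.78% ± 1.04. The median of all genes was 12.2%, and 9 of the 10 ISR genes were above it, *ASNS* being the exception. If levels were steady and labeling began at once, these values correspond to half-lives of 26.6 ± 3.56 min for *PPP1R15A*, 28.6 ± 2.93 min for *DDIT3*, 34.4 ± 7.50 min for *CHAC1*, 117 ± 13.6 min for *ATF4* and 715 ± 139 min for *ASNS*. Neighbors in this order overlapped between libraries except for *CEBPB* and *SESN2*, *TRIB3* and *ATF5*, and *ATF5* and *ASNS*. The spread was partly shared by all genes, since their median fraction new was 9.26%, 12.3% and 14.7% in untreated replicates 1, 2 and 3. It was 10.7% and 10.3% in emetine replicates 1 and 3, and replicate 2 was the highest emetine library and below untreated replicate 2.

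To determine which ISR genes changed in level after 1 h of 1.8 µM emetine, the 3 emetine libraries with s4U were compared with the 3 untreated ones by edgeR's quasi-likelihood test. *ATF3* and *PPP1R15A* were raised and none of the 10 was lowered at a Benjamini-Hochberg adjusted p-value under 0.05. Among all 13776 genes tested, 2.64% were raised and 0.0436% were lowered by this rule. Without emetine replicate 3 these shares were 10.1% and 3.87%, and without untreated replicate 1, 2 or 3 only 4, 5 or 18 genes passed as raised. The median log2 change was 0.04 for the 10 genes and 0.03 for all genes. Spike-in reads made up 0.48% to 0.73% of reads in the untreated libraries and 0.30% to 0.67% in the emetine libraries, so scaling to them is uncertain. With this scaling in place of TMM, the SE of *ATF3* was 0.49 in place of 0.14, and the median of all genes moved to 0.71. Relative to it, *ATF3* stood at 1.92, *DDIT3* at 0.83 and *PPP1R15A* at 0.56, and of these *ATF3* alone passed (adjusted p = 0.000231, against 0.105 for *DDIT3* and 0.167 for *PPP1R15A*, edgeR).

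*ATF3* (chromosome 1, 212565334 to 212620777, plus strand, GENCODE 44 on GRCh38) encodes a bZIP protein that ATF4 and other stress pathways induce. Its level was 26.2, 18.2 and 24.7 CPM in the untreated libraries and 84.4, 83.6 and 91.3 CPM in the emetine libraries. All emetine libraries stood above all untreated ones, and emetine replicate 3 was close to the others for this gene. The log2 change was 1.91 (SE 0.14, adjusted p = 0.000845 by edgeR's quasi-likelihood test), a 3.76-fold rise. It remained called in all 14 alternative fits. In the pair without s4U, the level was 29.1 CPM untreated and 104 CPM with emetine, which is a ratio of 3.59.

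*PPP1R15A* (chromosome 19, 48872212 to 48876059, plus strand) had 27.5, 25.6 and 22.4 CPM in untreated cells and 41.2, 35.0 and 36.1 CPM with emetine. The groups did not overlap, and the log2 change was 0.57 (SE 0.11, adjusted p = 0.0381, edgeR). This call was weak: leaving out 1 library ended it for every library but emetine replicate 3, with adjusted p-values between 0.0531 and 0.189, and without emetine replicate 3 it was 0.59 with an adjusted p of 0.00115. The single libraries without s4U had 27.8 CPM untreated and 49.4 CPM with emetine.

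*DDIT3* (chromosome 12, 57516588 to 57521737, minus strand), which encodes the pro-apoptotic factor CHOP, lay at the threshold. Its level was 14.5, 10.4 and 12.9 CPM in untreated cells and 25.6, 24.7 and 17.2 CPM with emetine, where the low value was that of replicate 3. The groups did not overlap, and the log2 change of 0.84 (SE 0.18) had an adjusted p of 0.0502 in edgeR. The gene passed in 6 of 14 alternative fits, among them the fit without emetine replicate 3 (log2 change 1.01, adjusted p = 7.88e-05) and DESeq2's Wald test (adjusted p = 0.00151). Without s4U, *DDIT3* had 14.8 CPM in the untreated library and 30.6 CPM in the emetine library. The 3' end of *DDIT3* overlaps *MARS1* on the opposite strand, and *MBD6* overlaps 1028 bases of it on that strand. Whether the counting used the strand of these stranded libraries is not given in the sources used here. A further annotated locus on the same strand spans 2769 bases of *DDIT3*, so reads in shared sequence are uncertain.

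For the remaining 7 genes the test of level was not passed. *ATF4* (chromosome 22, 39519695 to 39522683, plus strand) had 859, 846 and 863 CPM in untreated cells and 904, 989 and 722 CPM with emetine, so that the emetine libraries lay on both sides of the untreated ones. Its log2 change was 0.03 (SE 0.13, adjusted p = 0.915, edgeR), and in the pair without s4U the level was 808 CPM untreated and 1014 CPM with emetine. The low emetine value was that of replicate 3, and without this library the log2 change was 0.15 (SE 0.06, adjusted p = 0.116, edgeR). Without emetine replicate 2 it was −0.077. In a fit corrected for transcript length and GC content, the change was 0.18 with an adjusted p of 0.0472, and in this fit 5.79% of all genes were raised and 4.35% lowered. *ATF5* (chromosome 19, 49928702 to 49933935, plus strand), which overlaps *NUP62* and *IL4I1* on the opposite strand, had 45.4, 45.3 and 40.5 CPM untreated and 41.1, 37.6 and 33.7 CPM with emetine. A further protein-coding locus on the opposite strand spans 5234 bases of *ATF5*. *CEBPB* (chromosome 20, 50190830 to 50192668, plus strand, 1 exon), the gene of C/EBPβ with an antisense RNA gene across part of it, had 17.2, 14.4 and 20.3 CPM untreated and 20.2, 17.4 and 15.8 CPM with emetine. For both genes the groups overlapped, and the log2 changes were −0.22 (SE 0.10) and 0.05 (SE 0.16).

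Among the downstream target genes, *TRIB3* (chromosome 20, 362835 to 397559, plus strand), a pseudokinase that inhibits AKT signaling and ATF4, had 17.7, 19.0 and 17.9 CPM untreated and 17.2, 21.1 and 17.0 CPM with emetine. *CHAC1* (chromosome 15, 40952962 to 40956512, plus strand) had 5.13, 3.55 and 6.70 CPM untreated and 5.17, 4.17 and 3.79 CPM with emetine. In these pairs of groups the values overlapped. *SESN2* (chromosome 1, 28259518 to 28282491, plus strand) rested at 55.9, 60.2 and 56.9 CPM without emetine and at 62.7, 63.9 and 67.3 CPM with it, and its groups did not overlap (log2 change 0.16, SE 0.08, adjusted p = 0.268, edgeR). *ASNS* (chromosome 7, 97851677 to 97872542, minus strand) had 162.8, 162.2 and 162.9 CPM untreated and 144.3, 149.6 and 131.1 CPM with emetine, with all emetine libraries below the untreated ones (log2 change −0.20, SE 0.09, adjusted p = 0.224). In the fit corrected for length and GC content, *ASNS* passed as lowered (log2 change −0.24, adjusted p = 0.0251). An annotated noncoding RNA locus on the same strand spans 20855 bases of *ASNS*, so reads in shared sequence are uncertain. Altogether 4 of the 10 genes had all emetine libraries above all untreated ones and 1 had them all below, where 19.5% and 15.2% of all genes did.

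**Figure D1:**
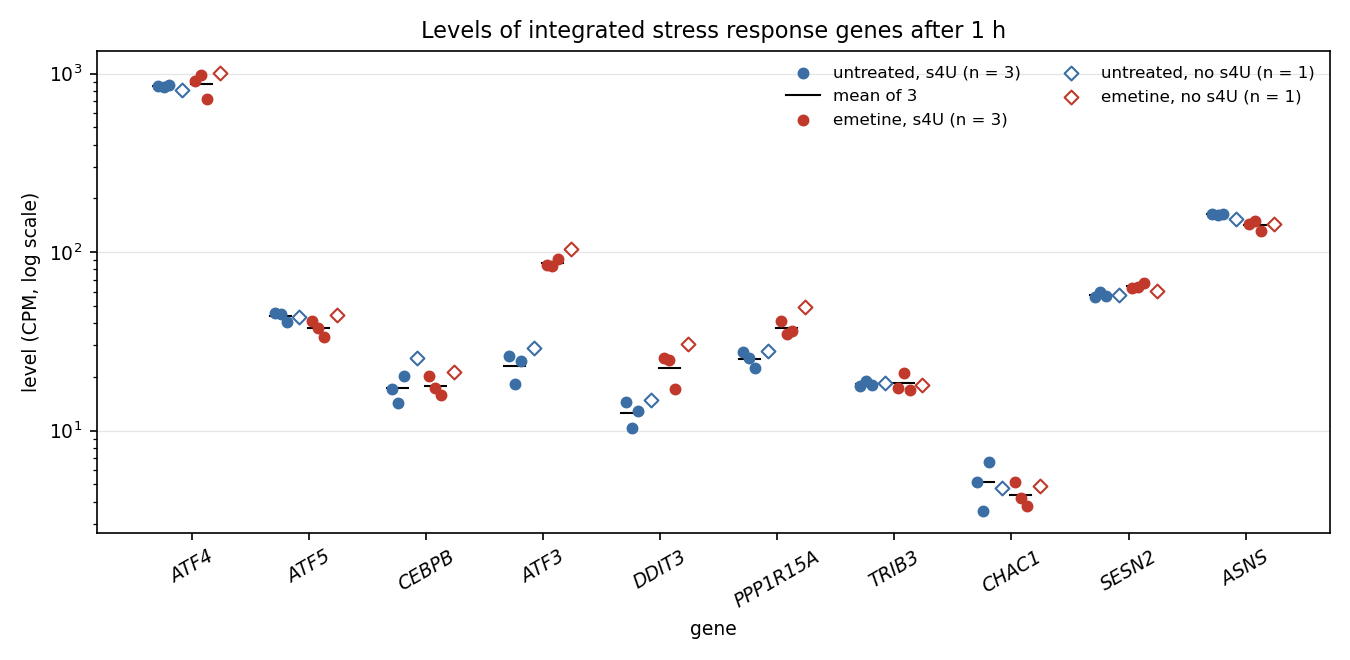
Level of each ISR gene in CPM on a log scale (y axis) by gene (x axis) in the 8 libraries of the 1 h experiment; filled circles are libraries with s4U (3 untreated, 3 emetine), open diamonds the single libraries without s4U, and bars the mean of 3. *ATF3* moved from 18.2 to 26.2 CPM in untreated cells to 83.6 to 91.3 CPM with emetine. *ATF4* ranged from 722 to 989 CPM over the libraries with s4U, and both of these values were from emetine libraries.

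To ask whether the share of RNA made during the hour changed with emetine, the fraction new was compared on the logit scale with limma. It fell for *CHAC1*, *DDIT3* and *PPP1R15A*, and no ISR gene passed as raised, where 4.83% of the 10763 genes tested were lowered and 0.214% were raised. Leaving out 1 library moved the lowered share from 0.873% (without untreated replicate 3) to 23.5% (without untreated replicate 1). The median change in logit was −0.43 for the 10 genes and −0.16 for all genes. In 8 of the 10 genes all emetine libraries lay below all untreated ones, and in 1, *ATF3*, they all lay above. The background for these patterns was 16.8% and 2.19% of all genes.

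*CHAC1* had a fraction new of 66.8%, 65.0% and 80.1% in the untreated libraries and of 38.9%, 44.4% and 39.5% with emetine. The change in logit was −1.27 (SE 0.25, adjusted p = 0.000304 by limma), and it passed in all 13 alternatives that could include this gene. *CHAC1* rested on 101 to 181 reads per library, so that the counting error of 1 value was up to 5.43 percentage points. *DDIT3* had 75.0%, 74.4% and 80.8% untreated and 51.7%, 49.6% and 53.5% with emetine (change in logit −1.14, SE 0.25, adjusted p = 0.00198). Its adjusted p was 0.0574 without emetine replicate 2. *PPP1R15A* had 76.7%, 76.4% and 84.2% untreated and 59.1%, 61.9% and 60.2% with emetine (change in logit −0.93, SE 0.26, adjusted p = 0.0190). This call ended when any 1 library other than untreated replicate 1 was left out, with adjusted p-values between 0.0639 and 0.194, and with a minimum of 50 reads in place of 100 (0.0622). In each of these 3 genes the emetine libraries lay close together and below every untreated library.

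*CEBPB* had 50.4%, 59.2% and 66.7% untreated and 40.7%, 40.7% and 41.0% with emetine, and it stood just outside the threshold (change in logit −0.73, SE 0.24, adjusted p = 0.0501, limma). Without untreated replicate 1, where 23.5% of all genes were lowered, the adjusted p was 0.00408. *SESN2* had 29.6%, 40.4% and 47.1% untreated and 27.9%, 28.2% and 26.6% with emetine (adjusted p = 0.196, and 0.00808 without untreated replicate 1). Untreated replicate 1 was the library with the lowest median fraction new over all genes, and it held the lowest untreated value of both genes. *ATF3* was the member with a higher estimate, from 46.6%, 61.8% and 69.1% to 70.0%, 70.9% and 73.3% (change in logit 0.53, SE 0.26, adjusted p = 0.272). It passed as raised after library medians were set equal (0.66, adjusted p = 0.0339), where 1.17% of all genes were raised.

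The remaining genes had smaller differences. *ATF4* had 26.9%, 31.0% and 32.2% untreated and 28.8%, 28.7% and 26.9% with emetine, and these ranges overlapped (change in logit −0.09, SE 0.21, adjusted p = 0.906, limma). *TRIB3* had 27.5%, 26.8% and 30.6% untreated and 23.7%, 20.6% and 25.9% with emetine. The values of *ATF5* were 17.6%, 19.6% and 16.0% without and 13.3%, 14.7% and 11.7% with emetine. *ASNS*, the most slowly renewed of the 10 mRNAs, had 4.68%, 5.91% and 6.74% untreated and 4.25%, 4.58% and 4.10% with emetine. None of these passed the test, with adjusted p-values of 0.627, 0.431 and 0.584 for *TRIB3*, *ATF5* and *ASNS* in limma.

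**Figure D2:**
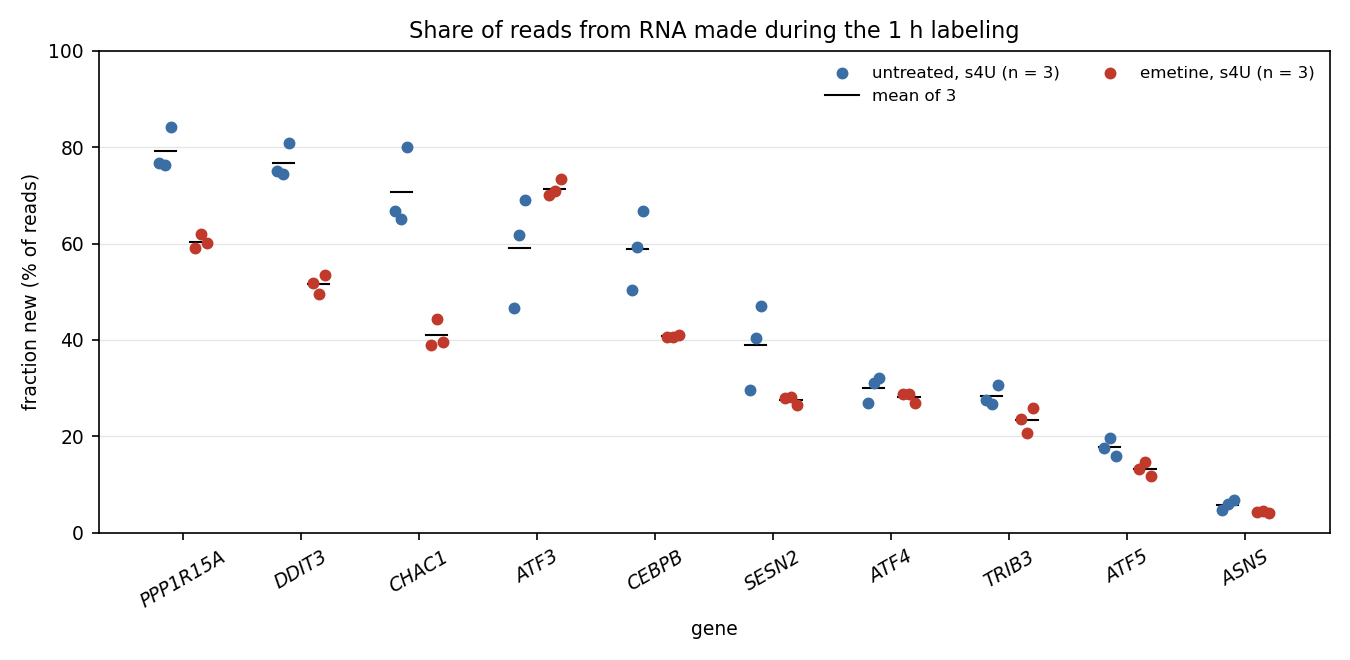
Fraction new in percent of reads (y axis) of each ISR gene (x axis, ordered by the untreated mean) in the 3 untreated and the 3 emetine libraries with s4U; points are libraries and bars the mean of 3. *CHAC1* went from 65.0% to 80.1% in untreated cells to 38.9% to 44.4% with emetine, and *ATF3* was alone in having all emetine libraries above the untreated ones.

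A level and a fraction new together give the CPM of labeled and of unlabeled reads. Labeled reads stand for RNA made during the hour. Unlabeled reads stand for earlier RNA alone only if labeling began at once. *ATF3* was the single ISR gene with raised labeled reads, against 0.26% of all genes raised and 0.632% lowered. Unlabeled reads were raised for *DDIT3*, *PPP1R15A* and *ATF3*, against 7.3% of all genes raised and 0.0929% lowered. No ISR gene was lowered in either class. The share of all genes whose groups did not overlap was not computed for these classes. Where groups are said below not to overlap, this is a description and not evidence of a change.

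Labeled reads of *ATF3* were 12.2, 11.2 and 17.1 CPM in untreated cells and 59.1, 59.2 and 67.0 CPM with emetine, a log2 change of 2.17 on the log2(CPM + 0.5) scale (SE 0.22, adjusted p = 1.48e-19, limma). Its unlabeled reads were 14.0, 6.95 and 7.63 CPM untreated and 25.3, 24.4 and 24.3 CPM with emetine (log2 change 1.39, SE 0.23, adjusted p = 0.00809, and 0.0646 without untreated replicate 3). For *ATF3* both classes rose, and neither overlapped between the groups. With emetine its unlabeled reads (mean 24.7 CPM) were about as high as its whole level in untreated cells (mean 23.0 CPM). That untreated level ranged from 18.2 to 26.2 CPM, and the unlabeled reads with emetine lay within this range. Whether these unlabeled reads were RNA made before the hour alone was not tested.

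In *DDIT3* the labeled reads were 10.9, 7.74 and 10.5 CPM untreated and 13.2, 12.2 and 9.17 CPM with emetine, and these overlapped (log2 change 0.24, SE 0.24, adjusted p = 0.775, limma). Its unlabeled reads were 3.62, 2.66 and 2.48 CPM untreated and 12.4, 12.5 and 7.98 CPM with emetine, so that each emetine library held more than any untreated one (log2 change 1.73, SE 0.21, adjusted p = 0.00251). In *PPP1R15A* the labeled reads were 21.1, 19.5 and 18.9 CPM untreated and 24.4, 21.6 and 21.8 CPM with emetine, without overlap, and the log2 change of 0.18 had an adjusted p of 0.825 in limma. Unlabeled reads of *PPP1R15A* were 6.41, 6.04 and 3.53 CPM untreated and 16.8, 13.3 and 14.4 CPM with emetine (log2 change 1.43, SE 0.22, adjusted p = 0.00542). Both calls of unlabeled reads held in all 12 alternatives.

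*CHAC1*, whose total level did not pass, had labeled reads of 3.42, 2.31 and 5.37 CPM untreated and 2.01, 1.85 and 1.5 CPM with emetine (log2 change −0.82, SE 0.27, adjusted p = 0.121, limma). Its unlabeled reads were 1.70, 1.24 and 1.33 CPM untreated and 3.16, 2.32 and 2.29 CPM with emetine (log2 change 0.68, SE 0.19, adjusted p = 0.0679). Neither class overlapped between the groups, and the 2 estimates had opposite signs. *CEBPB* had labeled reads of 10.3 ± 2.88 CPM untreated and 7.26 ± 0.905 CPM with emetine, and unlabeled reads of 7.05 ± 1.36 and 10.5 ± 1.36 CPM (log2 change 0.56, SE 0.17, adjusted p = 0.0919). *SESN2* had labeled reads of 22.6 ± 5.34 and 17.8 ± 0.259 CPM and unlabeled reads of 35.1 ± 4.65 and 46.8 ± 2.22 CPM (adjusted p = 0.0727 for the unlabeled reads). Neither class of *CEBPB* overlapped between the groups, and for *SESN2* the unlabeled reads did not overlap while the labeled reads did. Without emetine replicate 3, unlabeled reads of *CEBPB*, *CHAC1* and *SESN2* also passed as raised (adjusted p = 0.0169, 0.0468 and 0.0238), where 13.7% of all genes were raised.

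*ATF4*, *TRIB3*, *ATF5* and *ASNS* passed in neither class. Labeled reads of *ATF4* were 257 ± 23.8 CPM untreated and 246 ± 46.5 CPM with emetine, and its unlabeled reads 599 ± 24.8 and 626 ± 90.0 CPM. *ATF5* had the second lowest estimate of labeled reads among the 10 genes (log2 change −0.60, SE 0.26, adjusted p = 0.295), with 7.78 ± 1.23 CPM untreated and 4.97 ± 0.883 CPM with emetine. For *ASNS* labeled reads the values were 9.40 ± 1.69 and 6.12 ± 0.739 CPM (log2 change −0.57, SE 0.25, adjusted p = 0.316, and 0.0162 without untreated replicate 1, where 16.1% of all genes were lowered). In labeled reads of both genes all emetine libraries lay below the untreated ones.

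**Figure D3:**
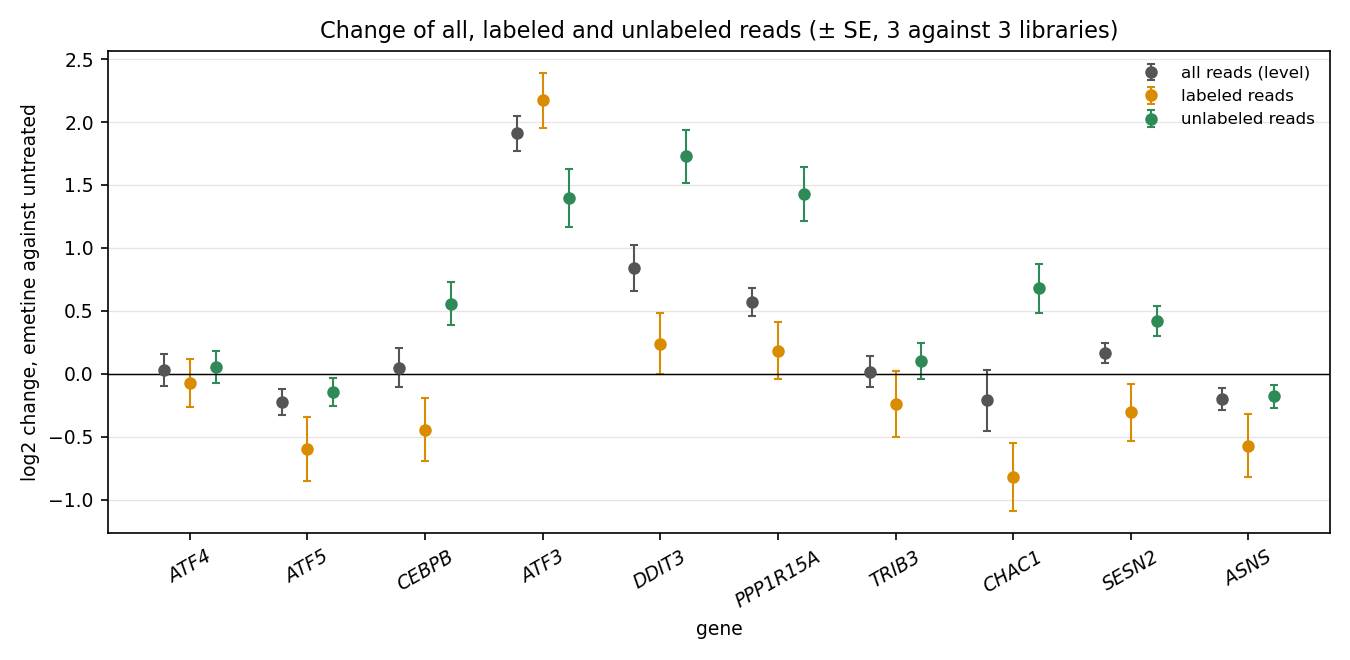
Log2 change with emetine (y axis) of all reads, labeled reads and unlabeled reads for each ISR gene (x axis); points are estimates from 3 against 3 libraries and bars are ± 1 SE. For *ATF3* the change of labeled reads (2.17) exceeded that of unlabeled reads (1.39), and for *DDIT3* it was the reverse (0.24 and 1.73).

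**Figure D4:**
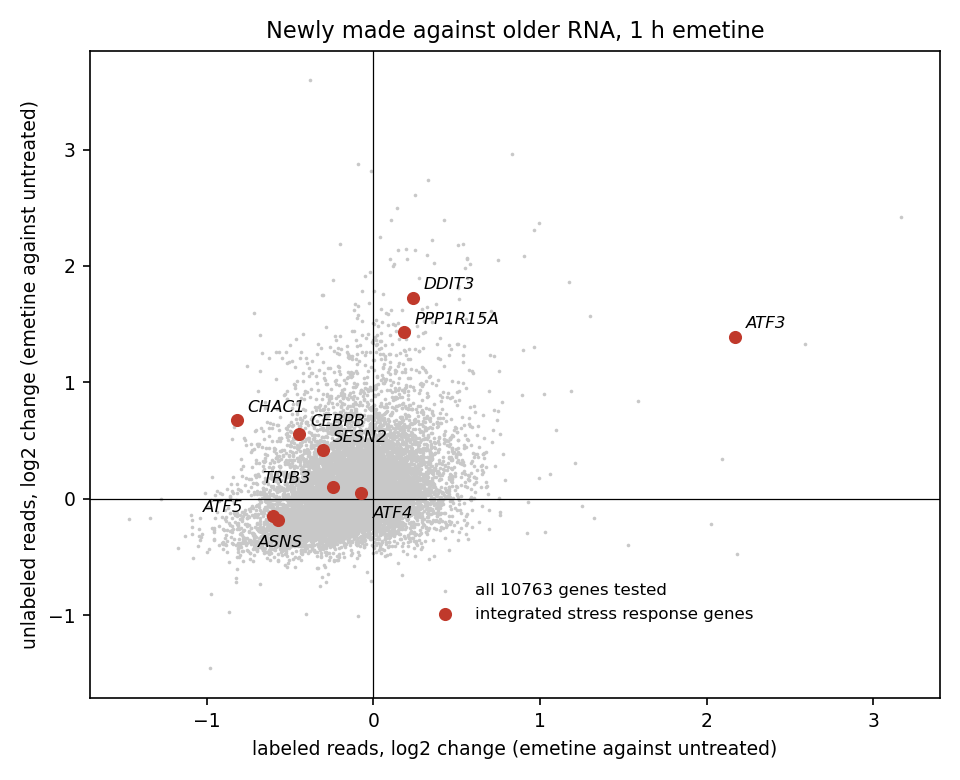
Log2 change of unlabeled reads (y axis) against that of labeled reads (x axis) with emetine, for all 10763 genes tested (gray) and the 10 ISR genes (red). *ATF3* lies to the right (2.17, 1.39), *DDIT3* (0.24, 1.73) and *PPP1R15A* (0.18, 1.43) lie above the bulk of genes, and *CHAC1* (−0.82, 0.68) lies to the left.

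To ask whether the labeling itself went with other levels of the ISR genes, libraries with and without it were compared in all 8 libraries of the 1 h experiment by edgeR's quasi-likelihood test, with emetine as a further term. No ISR gene and 0% of the 14102 genes tested passed, while 673 genes had an unadjusted p under 0.05 and 25 passed in DESeq2's Wald test. Estimates for the 10 genes ran from −0.41 to 0.04 on the log2 scale. The lowest were those of *CEBPB* (−0.41, SE 0.15), *DDIT3* (−0.35, SE 0.17), *ATF3* (−0.30, SE 0.13) and *PPP1R15A* (−0.28, SE 0.11), and each was lower with s4U. *CEBPB*, *ATF3* and *PPP1R15A* had an unadjusted p under 0.05 in edgeR, and the adjusted p was 0.895 for all 4 genes. Each treatment had 1 library without s4U, so the error comes mostly from the labeled libraries.

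The emetine change itself was compared between cells with and without s4U as an interaction in the same libraries. No ISR gene and 0% of the genes tested passed in edgeR, with 597 genes at an unadjusted p under 0.05 and 6 passing in DESeq2. For *ATF3*, the difference between the changes was 0.07 (SE 0.27), for *DDIT3* −0.21 (SE 0.36) and for *PPP1R15A* −0.26 (SE 0.23). Ratios of the emetine to the untreated library without s4U were 2.06 for *DDIT3*, 1.78 for *PPP1R15A*, 1.25 for *ATF4*, 1.06 for *SESN2*, 1.03 for *CHAC1*, 1.02 for *ATF5*, 0.975 for *TRIB3*, 0.941 for *ASNS* and 0.834 for *CEBPB*.

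Further genes of the pathway were read from lists chosen by function, with earlier results of these data known. *TXNIP*, *DDIT4* and *JUN*, named below, had already been reported as changed in the study of these libraries. Counts of genes that passed, set beside the shares of all genes, are therefore a description and not a test of the lists. Of 19 genes of eIF2, its kinases and its regulators, such as *EIF2AK3* and *EIF2AK4*, none passed in level or in fraction new (median log2 change −0.11). Of 24 genes of amino acid synthesis and transport under ATF4 and of 13 cytosolic tRNA synthetase genes, again none passed in either test, and their median log2 changes were −0.07 and −0.03. Nor did any of 19 genes of the unfolded protein response outside the ISR, among them *HSPA5* and *XBP1* (median −0.15). The summed level of the 24 amino acid genes was 3980 to 4076 CPM in untreated and 3628 to 3766 CPM in emetine libraries. This was not particular to them. Sums went from 2409 to 2453 CPM to 2165 to 2322 CPM for the eIF2 list. For the tRNA synthetases they went from 3514 to 3689 CPM to 3423 to 3506 CPM. The unfolded protein response genes went from 4270 to 4418 CPM to 3756 to 3899 CPM. Of the lists below, the sum of the stress targets overlapped between the groups. That of the bZIP partners went from 1223 to 1246 CPM in untreated to 2043 to 2592 CPM in emetine libraries. *JUN*, 1 gene of that list, had a mean of 122 CPM untreated and of 1040 CPM with emetine.

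Among 29 tested genes of other stress targets of ATF4 or CHOP, 3 were raised in level and none was lowered, against 2.64% and 0.0436% of all genes. Of the 24 tested for fraction new, 1 was raised and 3 were lowered, against 0.214% and 4.83% of all genes. *TXNIP*, which encodes a thioredoxin-binding arrestin, rose from 27.9 ± 1.78 to 114 ± 5.37 CPM (log2 change 2.03, SE 0.09, adjusted p = 5.46e-05, edgeR), and its fraction new rose from 92.4% ± 0.677 to 97.5% ± 0.332 (adjusted p = 0.0122, limma). *DDIT4*, an inhibitor of mTORC1 signaling, rose from 27.2 ± 2.61 to 46.4 ± 2.04 CPM (log2 change 0.77, adjusted p = 0.0104), and *STC2*, which encodes the secreted glycoprotein stanniocalcin 2, from 55.7 ± 2.77 to 81.6 ± 4.91 CPM (0.55, adjusted p = 0.0175). The fraction new of these genes went the other way, from 88.1% ± 4.07 to 56.9% ± 0.614 for *DDIT4* and from 51.8% ± 6.19 to 24.9% ± 1.67 for *STC2* (adjusted p = 3.38e-06 and 0.000214, limma).

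ATF4, ATF3, ATF5, CHOP and C/EBPβ act as dimers with other bZIP proteins. Of 31 tested genes of such partners, 3 were raised in level, and none was lowered, beside the same 2.64% and 0.0436% of all genes. In fraction new, 1 of 25 tested was raised and 3 were lowered (all genes, 0.214% and 4.83%). *JUN*, the AP-1 subunit that pairs with ATF3, rose from 122 ± 3.17 to 1040 ± 217 CPM (log2 change 3.10, SE 0.16, adjusted p = 7.86e-05, edgeR), *FOS* from 1.77 ± 0.438 to 7.62 ± 3.51 CPM and *NFIL3* from 15.4 ± 0.798 to 21.8 ± 1.08 CPM (adjusted p = 0.0187 and 0.0447). The fraction new of *JUND* rose from 26.9% ± 6.13 to 63.8% ± 2.70 (adjusted p = 1.49e-06, limma). That of *NFIL3* fell from 77.7% ± 6.55 to 56.9% ± 5.93 and that of *DBP*, a circadian bZIP factor, from 22.6% ± 2.70 to 11.3% ± 2.27 (adjusted p = 0.0104 and 0.00700).

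The genes most like *ATF3* in level across the 8 libraries, among 10712 genes with 100 reads or more in all of them, were *CLCN6* and *MTPAP* (Pearson r of log2 CPM 0.992 and 0.991). *PPP1R15A* was followed most closely by *ZBTB45* and *MTERF1* (r = 0.986 for each). The 8 points share the treatment, and of these genes *CLCN6* and *MTPAP* passed the test of level (log2 changes 0.85 and 0.38, adjusted p = 0.0115 and 0.0447, edgeR).

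For the 2 h experiment only the authors' mean of spike-in-normalized counts over all 9 libraries was used, which mixes untreated cells and both doses and has no error here. Among the 7 ISR genes listed, *ATF4* had the highest mean per kilobase of transcript, 4179, followed by *ASNS* (991), *ATF3* (926), *DDIT3* (317), *PPP1R15A* (172), *SESN2* (158) and *CEBPB* (140). Among the 9982 genes listed, the mean not scaled for length placed *ATF4* at the 95.6th percentile, *ATF3* at the 74.0th and *CEBPB* at the 13.3rd. The 2 h changes of the ISR genes and the 2 h values of *ATF5*, *TRIB3* and *CHAC1* were not analysed here.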

How the data were processed

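TL-seq libraries of HEK-293T cells were grouped by treatment, time, s4U and replicate number in their labels. The members and all gene lists were chosen with earlier results of these data known. In the 1 h experiment, adapter trimming (cutadapt), mapping to hg38 (hisat-3n) and the tally of T-to-C conversions (bam2bakR) were done by the authors, and the deposited table holds read counts without normalization, separate for each library. In the 2 h experiment, the authors used htseq-count and DESeq2 with spike-in factors on genes over 100 counts. From those tables the deposited signal, the mean of normalized counts over the 9 libraries, was used as the authors' mean. Their fold changes, standard errors and p-values, and the spike-in factors, were not used. Libraries of the 1 h experiment were made with a poly(A) selection kit and those of the 2 h experiment with a total RNA kit, so levels were not compared between them.

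Read counts were summed per gene and tested with edgeR 4.0.16 (TMM, quasi-likelihood) in R 4.3.3, keeping genes whose counts summed to over 100. Fraction new was the weight of a 2-component binomial mixture fitted by maximum likelihood per gene and library in Python 3.11.15, with the background rate of the library without s4U of the same treatment (0.0504% and 0.0521% of T positions) and a new-read rate fitted per library (8.49% to 9.53%). Its logit, bounded at 0.001 and 0.999, was tested with limma 3.58.1 (trend, robust) for the 10763 genes that reached 100 reads in all 6 libraries. Labeled and unlabeled reads were CPM times the fraction new or its complement, tested with limma on log2(CPM + 0.5), which understates the change of low genes. All p-values are two-sided, and adjusted p-values are Benjamini-Hochberg over all genes tested. A half-life was computed as −ln(2) over ln(1 − fraction new), in hours, and given in minutes. The study used bakR for fraction new, which was not run here.

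Symbols were matched to GENCODE 44 on GRCh38 for coordinates and transcript length, which was that of the canonical transcript. On simulated data, 100% of 200 genes among 13711 changed by a log2 of 1.5 were recovered in the test of level, with 7.83% of calls false. These 200 genes were drawn from genes with more reads than the filter required, and no library carried a trend on transcript length. Recovery of smaller changes, such as those of *PPP1R15A* (0.57) and *DDIT3* (0.84), was not tested. In the test of fraction new, 74.5% of 200 genes among 3000 changed by a logit of 1.0 were recovered, with 1.97% false. Alternatives were tried for the scaling, count filter, test, read minimum, conversion rates, weighting, pseudocount, replicate block and each library left out. Named genes were the 10 members, up to 5 genes of each list that passed in level and up to 3 in fraction new, by size of change, and the 2 genes nearest in pattern to each member that passed in level. Other gene names stand for lists and markers and carry no test of their own. 1 gene of the lists is not reported here. No molecular identifiers are described, so intervals and limits cover counting error only. Figures were drawn with matplotlib 3.10.9.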

Additional observations from a re-analysis of the deposited data

How the results depend on the processing

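For level, the count of raised ISR genes was 2 and went to 1 with a replicate block and 1 with scaling to the spike-in reads (*ATF3* in each), to 4 with a correction for transcript length and GC content (*ATF4* and *DDIT3* added, with 5.79% of all genes raised and 4.35% lowered), and ran from 1 to 3 when 1 library was left out; this correction also gave 1 lowered gene, *ASNS*. For fraction new, the lowered genes numbered 3, against 5 with each library centered (*CEBPB* and *SESN2* added), 0 with a minimum of 500 reads, which left 5 of the 10 genes and none of these 3, and 1 to 5 when 1 library was left out. Centering also gave 1 raised gene, *ATF3*. Labeled reads gave 1 lowered gene, *CHAC1*, with reads of at least 2 conversions, and 0 to 3 when 1 library was left out, 3 of them (*CHAC1*, *SESN2*, *ASNS*) without untreated replicate 1. Raised unlabeled reads ran from 2 to 6 genes when 1 library was left out. The cause of these changes was not tested.

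No estimate that changed sign passed with all 6 libraries and the settings of the report, but the levels of *ATF4* and *ASNS* passed with the correction for length and GC content, and labeled reads of *SESN2* and *ASNS* without untreated replicate 1, where 16.1% of all genes were lowered. Scaling to the spike-in reads moved the median of all genes to 0.71 in level, and *ATF5* (0.46), *CHAC1* (0.54) and *ASNS* (0.47) turned positive while staying below that median. In labeled reads it did so for *ATF4* (0.55), *CEBPB* (0.15), *TRIB3* (0.33), *SESN2* (0.31) and *ASNS* (0.018), and in unlabeled reads for *ATF5* (0.47) and *ASNS* (0.45). *CEBPB* was −0.030 in level with all 8 libraries, *TRIB3* −0.0053 with DESeq2 and −0.0057 with RLE, and *ATF4* 0.037 in centered fraction new. Leaving out 1 library gave ranges across 0 for the level of *ATF4* (−0.077 to 0.15), *CEBPB* (−0.074 to 0.18), *TRIB3* (−0.095 to 0.076) and *CHAC1* (−0.43 to 0.020), for labeled reads of *ATF4* (−0.19 to 0.086) and for unlabeled reads of *ATF4* (−0.039 to 0.17) and *TRIB3* (−0.021 to 0.18). In the s4U term, the replicate block gave −0.053 for *TRIB3*, 0.095 for *CHAC1* and −0.0012 for *SESN2*, and the fit without emetine replicate 3 gave 0.00078 for *ATF4* and 0.013 for *CHAC1*.

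Same-numbered untreated and emetine libraries correlated at 0.048, −0.10 and −0.32 in their deviations in level, and not every library correlated best with its own number. Deviations from a mean of 3 libraries are tied to each other, so these correlations cannot tell whether the numbers paired the samples. The replicate block took the raised genes among all 13776 from 363 to 75 and gave *PPP1R15A* an adjusted p of 0.0757. In fraction new, the block took the lowered genes from 520 to 647, and *CEBPB* passed as lowered (adjusted p = 0.0292, limma). Over all genes, DESeq2's Wald test raised 820 and lowered 156, against 363 and 6 in edgeR. Genes under 500 reads, *CHAC1* above all, are limited by depth.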
